A study of Mus musculus with 24 samples.

Results

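The 8 transcription factors of fat cell formation described here were measured in subcutaneous inguinal white adipose tissue of 24 mice: Pparg, Cebpa, Cebpb, Cebpd, Klf15, Ebf1, Zfp423 and Zfp467. They were chosen by name as known adipogenic regulators, and all 8 were found among the 16118 genes of the deposited table and passed the filter on low values. Poly(A) RNA was sequenced from 1 library per mouse, in 6 groups of 4 animals: males and females at postnatal day 21 (p21), males and females at day 28 (p28) after standard weaning (SW), in which pups left their mother at day 21, and males and females at p28 after delayed weaning (DW), in which pups stayed with her. The labels of the p21 animals also carry the letters SW, and these animals are the baseline for both p28 regimes. The labels give no strain, transgene, drug or diet, and no allele is named for any group. Animals are named here by the numbers in the labels.

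Fat cells form from fibroblast-like progenitors of the tissue stroma in a cascade of transcription factors. Early signals raise Cebpb and Cebpd, which encode CCAAT/enhancer-binding proteins, and these switch on Pparg and Cebpa, the factors that keep each other on and drive most genes of the mature fat cell. Klf15 is a glucocorticoid-induced Krüppel-like factor of the later steps. Ebf1 is an early B cell factor that acts in fat cell as well as in B cell development. The zinc finger factor Zfp423 marks committed preadipocytes, and Zfp467 favours the fat over the bone fate of stromal cells. In RNA from whole tissue, fewer cells of a type and less RNA per cell cannot be told apart.

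The factors act on each other's genes, so the 250 bases before their start sites were searched for the letters of a C/EBP site (TTGCNNAA), an EBF site (CCCNNGGG), a CCAAT box and a TATA box (TATAAA). Entries were found for 7 of the 8 members, with 11 windows. The 4 windows printed were picked after the search, from the 7 that held a match and had no base in an annotated exon. They come from RefSeq with the build GRCm38.p6, read 5′ to 3′ on the gene's own strand, and capitals mark a match on either strand. The Pparg window is chr6:115421816-115422065 on the plus strand, before the downstream start site used for the fat-selective isoform. The Cebpa window is chr7:35119043-35119292, plus strand, the Cebpb window is chr2:167688665-167688914, plus strand, and the Zfp423 window is chr8:87959596-87959845, minus strand.
Pparg: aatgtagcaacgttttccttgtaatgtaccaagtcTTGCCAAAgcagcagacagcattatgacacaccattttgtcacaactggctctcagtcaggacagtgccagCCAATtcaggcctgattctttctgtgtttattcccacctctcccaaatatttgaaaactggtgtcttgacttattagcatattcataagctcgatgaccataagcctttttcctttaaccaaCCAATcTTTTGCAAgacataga
Cebpa: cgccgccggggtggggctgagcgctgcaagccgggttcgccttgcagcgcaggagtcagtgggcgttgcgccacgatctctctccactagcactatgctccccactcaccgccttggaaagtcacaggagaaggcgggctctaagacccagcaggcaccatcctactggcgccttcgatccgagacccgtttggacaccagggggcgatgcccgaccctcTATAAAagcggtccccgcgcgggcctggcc
Cebpb: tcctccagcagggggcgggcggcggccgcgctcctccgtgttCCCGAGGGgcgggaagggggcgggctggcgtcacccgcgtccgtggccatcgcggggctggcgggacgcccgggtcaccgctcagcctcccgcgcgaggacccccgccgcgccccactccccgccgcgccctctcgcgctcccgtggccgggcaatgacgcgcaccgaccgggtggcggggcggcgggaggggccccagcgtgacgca
Zfp423: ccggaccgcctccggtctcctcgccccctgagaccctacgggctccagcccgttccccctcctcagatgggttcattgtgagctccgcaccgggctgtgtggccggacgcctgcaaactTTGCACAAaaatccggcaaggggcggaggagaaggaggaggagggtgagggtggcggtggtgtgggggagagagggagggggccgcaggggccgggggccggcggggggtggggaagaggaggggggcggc
The Pparg window held 2 C/EBP matches and 2 CCAAT boxes at a GC content of 40.8%, and the Zfp423 window held 1 C/EBP match at 71.6% GC. The Cebpa window held a TATA box at 66.4% GC, and the Cebpb window held 1 EBF match at 81.6% GC. Over all 11 windows the C/EBP letters stood in 2, the EBF letters in 3, CCAAT in 3 and TATAAA in 2, and neither window of Ebf1 held any of them. Both Ebf1 windows lie downstream of the gene start at chr11:44617317 in GENCODE M21, and 1 lies wholly in an annotated exon. The bases before that start were not searched, so nothing is said about them. Of 32851 promoter windows of this length, 9.56% held the C/EBP letters, 11.8% the EBF letters, 33.8% CCAAT and 12.4% TATAAA. The median GC content of all windows was 52.4%. Neither the direct-repeat element of PPAR with its partner RXR nor the palindromic glucocorticoid receptor element had a match in the 11 windows. They occur in 0.0335% and 0.387% of all windows. A match describes letters and is not a measured site, and the deposited values are sums per gene that do not separate the Pparg start sites.

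The deposited values are read numbers divided by 1 factor per library, called normalised signal here. Divided by the exon length of each gene in kilobases (GENCODE M21), the mean level over the 24 animals was highest for Cebpa at 66.6 per kb and Pparg at 58 per kb. Ebf1 followed at 20.5 per kb and Klf15 at 11.5 per kb. Zfp467 stood at 6.82 per kb, Cebpb at 5.54 per kb and Zfp423 at 4.36 per kb, and Cebpd was lowest at 0.351 per kb. On this scale Cebpa lay at percentile 97.1 and Pparg at 96.6 of all genes, and Cebpd lay at percentile 20.0. The counting depth was ample for 7 members, with at least 370 reads in every library, while Cebpd had 43 to 337 reads per library.

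The genes lie on 6 chromosomes in GRCm38, taken from GENCODE M21 by the Ensembl identifiers of the table. Pparg (ENSMUSG00000000440) spans chr6:115360951-115490399 and Klf15 (ENSMUSG00000030087) chr6:90462576-90475238, both on the plus strand. Zfp467 (ENSMUSG00000068551) lies on the minus strand of the same chromosome at chr6:48427697-48445825. Cebpa (ENSMUSG00000034957) lies at chr7:35119293-35121928, and Cebpd (ENSMUSG00000071637) at chr16:15887286-15891031, both plus. Ebf1 (ENSMUSG00000057098) spans chr11:44617317-45008091 on the plus strand, and Zfp423 (ENSMUSG00000045333) spans chr8:87661810-87959595 on the minus strand. The single exon of Cebpb (ENSMUSG00000056501) is at chr2:167688915-167690418, plus strand, and 312 of its bases (20.7%) are shared with exons of Tmem189 on the other strand. Cebpd shares 562 exon bases (15.0%) with Spidr on the other strand, and Cebpa shares 51 (1.93%) with the antisense gene Gm45091. The strand setting of the counting is not given in the sources used here, so reads of these overlaps may be split between the genes.

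Among the 8 factors, 3 changed with age, and all of their changes were decreases from day 21 to day 28. Pparg fell in females after standard weaning, Ebf1 fell in both sexes under delayed weaning, and Cebpb fell in males under delayed weaning. Averaged over the sexes, Pparg and Ebf1 also fell after standard weaning (-0.47 and -0.30). No member was called in the direct comparison of delayed against standard weaning. Cebpa, Cebpd, Klf15, Zfp423 and Zfp467 passed the threshold in none of the 16 comparisons of the main test. That test was limma on log2(value + 1) with all 24 animals in 1 fit, and a gene counts as called at a Benjamini-Hochberg adjusted p under 0.05 over 16005 genes. Of the 128 pairs of a member and a comparison, 7 were called, or 5.47%. Over all genes tested it was 7.17%, so the members were not called more often than genes at large. The comparisons share animals, and their calls are not independent. The median log2 change of all genes tested lay between -0.02 and 0.04 in every comparison.

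**Figure D1:**
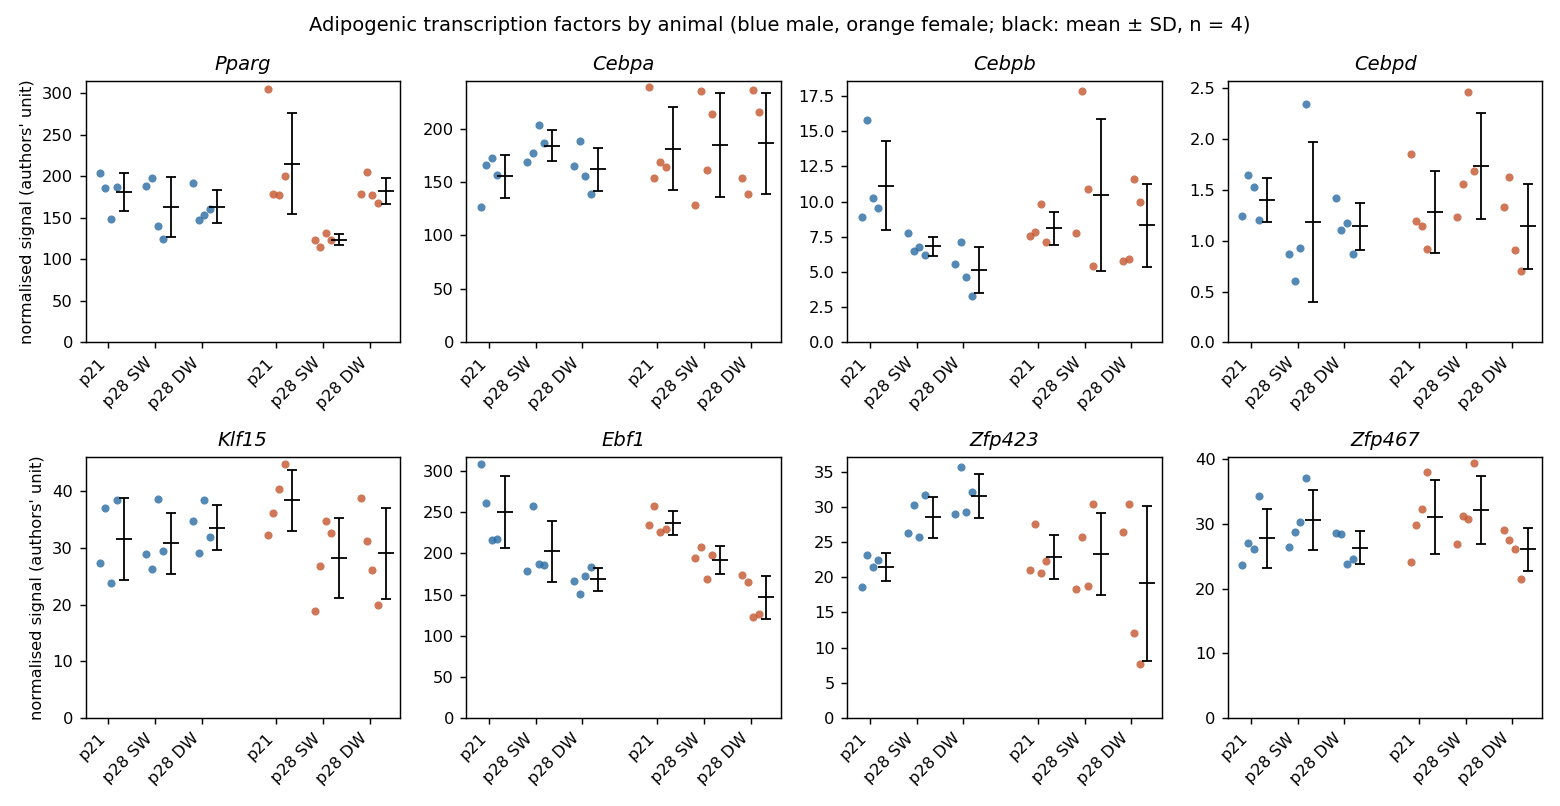
Normalised signal of the 8 factors in each animal (y axis, from 0), with males in blue and females in orange at p21, p28 after standard weaning (SW) and p28 after delayed weaning (DW); black marks are means with SD, n = 4. The SW females have the lowest mean of Pparg, with animals at 115 to 131, and Ebf1 is lowest in the DW females at 123 to 174.

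The plot of the 8 factors by animal shows that most compared groups overlapped. Pparg, Cebpb, Ebf1 and Zfp423 had pairs of groups that did not, given below with the shares of all genes. When the 6 groups were ordered by their mean, all 40 pairs of neighbouring groups had overlapping animals. Neighbours in this order have the closest means and no share was computed for all genes, so no conclusion is drawn from that count. The highest group mean exceeded the lowest 2.17 times for Cebpb, 1.75 times for Pparg, 1.71 times for Ebf1 and 1.65 times for Zfp423. For Cebpd it was 1.52 times, for Klf15 1.36 times, for Zfp467 1.23 times and for Cebpa 1.20 times.

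Pparg encodes the nuclear receptor that is needed for fat cells to form and to persist. In females its normalised signal was 305, 178, 177 and 201 at p21, and 123, 115, 131 and 124 at p28 after standard weaning. All 4 SW females lay below all 4 p21 females. Among all genes, 21.4% had groups that did not overlap in this pair. The means were 215 ± 60.9 and 123 ± 6.57 (SD, n = 4 each), and Pparg fell by 0.76 on the log2 scale (SE 0.16, limma adjusted p = 0.00235). It was the 1 member of 8 called in this comparison, in which 11.6% of all genes were called. Animal 30 was the highest of the p21 females at 305, and without it Pparg still fell by 0.58 (limma adjusted p = 0.0105).

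After delayed weaning the female values of Pparg were 179, 205, 177 and 168. All 4 DW females lay above all 4 SW females. Groups in this pair did not overlap for 5.78% of all genes. The mean was 182 ± 15.9 (SD, n = 4), 1.48 times that of the SW females. The log2 difference was 0.56 (95% interval 0.23 to 0.89), which did not pass the test across all genes in limma (adjusted p = 0.0872). DESeq2 on the recovered reads did call it (0.58, adjusted p = 0.0354), as did limma without DW female 76 (0.56, adjusted p = 0.0403). Over the 20 alternatives it lay between 0.50 and 0.63, with adjusted p from 0.0354 to 0.491. Compared with p21, the DW females gave a log2 difference of -0.21 (limma adjusted p = 0.425), which was not called.

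Male Pparg values were 203, 186, 149 and 187 at p21, 189, 198, 139.8 and 124 after standard weaning, and 192, 148, 153 and 160.1 after delayed weaning. These groups overlapped throughout. The log2 difference of delayed against standard weaning was 0.03 in males (95% interval -0.30 to 0.36). The difference between the sexes in that effect was -0.53, male minus female (95% interval -0.99 to -0.07), and was not called (limma adjusted p = 0.802). The sexes also were not shown to differ in the change from p21 to standard weaning, where male minus female was 0.59 (limma adjusted p = 0.380). Averaged over the sexes, Pparg fell by 0.47 from p21 to standard weaning (SE 0.11, limma adjusted p = 0.00395). With the mean log2 levels of B cell, mammary and muscle markers as covariates, that mean change was -0.40 and was no longer called (limma adjusted p = 0.103). It was called under the other 26 of 27 alternatives, with the smallest adjusted p at 0.000640.

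Cebpa encodes C/EBPα, the partner of PPARG in the mature fat cell. Its group means lay between 155 and 186, the narrowest relative range of the 8. In females the values were 239, 153, 169 and 164 at p21, 129, 235, 161 and 214 after standard weaning, and 154, 139, 236 and 216 after delayed weaning. High and low animals stood in each female group. Male values ran from 127 to 203 over the 12 males. The log2 difference of delayed against standard weaning was 0.01 in females (95% interval -0.37 to 0.40) and -0.19 in males (95% interval -0.57 to 0.19). Cebpa was called under none of the alternatives tried.

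Cebpb encodes C/EBPβ, one of the first factors induced when progenitors start to differentiate. In males it was 8.90, 15.8, 10.2 and 9.57 at p21, 7.74, 6.51, 6.78 and 6.19 after standard weaning, and 5.53, 7.11, 4.64 and 3.27 after delayed weaning. All 8 males at p28 lay below all 4 at p21. Groups did not overlap for 16.1% of genes between SW and p21 males and for 23.0% between DW and p21 males. From p21 to delayed weaning Cebpb fell by 0.99 on the log2 scale (SE 0.27, limma adjusted p = 0.0169), from 11.1 ± 3.17 to 5.14 ± 1.61 (SD, n = 4 each). Cebpb and Ebf1 were the 2 members of 8 called in this comparison, in which 15.0% of all genes were called.

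The decrease of Cebpb was lost under 3 of 19 alternatives, over which limma, edgeR or DESeq2 gave adjusted p from 0.00273 to 0.0940. These were without p21 male 38, the highest animal (-0.82, limma adjusted p = 0.0554), without DW male 87, the lowest (-0.83, adjusted p = 0.0742), and with the marker levels as covariates (-0.94, adjusted p = 0.0940). From p21 to standard weaning the male log2 difference was -0.61 (limma adjusted p = 0.145). In that comparison 0 of the 8 members were called by limma, edgeR or DESeq2, against 11.9% of all genes by limma, and 2 members, Cebpb and Ebf1, had an unadjusted p under 0.05.

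In females Cebpb was 7.55, 7.87, 9.81 and 7.12 at p21, 7.73, 17.8, 10.9 and 5.43 after standard weaning, and 5.76, 5.93, 11.6 and 9.94 after delayed weaning. These groups overlapped, and SW female 74 was the highest of all 24 animals. The change from p21 to delayed weaning differed between the sexes by -0.98, male minus female (95% interval -1.76 to -0.19), and this was not called (limma adjusted p = 0.216). None of the 8 members was called by limma, edgeR or DESeq2 for a sex difference in that change, with 0.0687% of all genes called by limma and 2 members, Cebpb and Zfp423, at an unadjusted p under 0.05.

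Cebpd encodes C/EBPδ, which acts beside C/EBPβ at the start of differentiation. It was scarce in every library, between 0.602 and 2.47. The SW females had 1.24, 1.56, 2.47 and 1.69, and the SW males 0.870, 0.602, 0.927 and 2.35, with male 124 alone above 1. The other 4 groups had means from 1.14 to 1.40. At such low values the 1 added before the log shrinks log2 differences. The ratio of the means, SW males to SW females, was 0.682. On the log2(value + 1) scale the difference was -0.37, male minus female (limma adjusted p = 0.598), and it lay between -0.64 and -0.24 over the alternatives. Without male 124 it was -0.59 and was called (limma adjusted p = 0.0386), the 1 call among 20 alternatives, whose adjusted p reached 1.00.

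Klf15 encodes a Krüppel-like factor that rises with glucocorticoids and acts on Pparg and on glucose transport genes. Female values were 32.3, 36.2, 40.5 and 44.8 at p21, 18.8, 26.9, 34.7 and 32.6 after standard weaning, and 38.9, 31.2, 26.2 and 19.95 after delayed weaning. Below all p21 females lay 2 of the 4 SW females and 3 of the 4 DW females. The log2 differences from p21 were -0.46 after standard weaning (limma adjusted p = 0.154) and -0.42 after delayed weaning (adjusted p = 0.169). Male values lay between 23.7 and 38.7 in the 3 states. With the GC correlation of each library as a covariate, the difference in standard-weaned females was -0.53 and was called (limma adjusted p = 0.0305), the 1 call among 19 alternatives with adjusted p up to 0.426. After delayed weaning it was called without DW female 76 (-0.57, adjusted p = 0.0497), again the 1 call among 19 with adjusted p up to 0.792.

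Ebf1 fell in both sexes under delayed weaning. In females it was 234, 258, 226 and 229 at p21, 195, 208, 168 and 198 after standard weaning, and 174, 165, 123 and 127 after delayed weaning. Both p28 groups of females lay below all p21 females. Groups did not overlap for 15.0% of all genes between DW and p21 females, and for 21.4% between SW and p21 females. In males it was 308, 261, 216 and 217 at p21, 178, 258, 188 and 186 after standard weaning, and 167, 151, 172 and 184 after delayed weaning. All DW males lay below all p21 males, a pair in which 23.0% of all genes had no overlap. SW male 84, at 258, stood among the p21 males.

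From p21 to delayed weaning Ebf1 fell by 0.70 on the log2 scale in females (SE 0.13, limma adjusted p = 0.00191), from 237 ± 14.3 to 147 ± 26.2 (SD, n = 4 each). It was the 1 member of 8 called in that comparison, with 12.1% of all genes called. In males it fell by 0.56 (SE 0.13, limma adjusted p = 0.00864), from 251 ± 43.8 to 169 ± 13.8. The mean of the sexes fell by 0.63 (SE 0.10, limma adjusted p = 7.53e-05), and Ebf1 was the 1 member of 8 called there, with 22.8% of all genes called. The calls in males, in females and in the mean held under all 19, 19 and 27 alternatives run for them. Without DW females 82 and 83, whose libraries stand apart, the female decrease was 0.48 (limma adjusted p = 0.0436).

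From p21 to standard weaning Ebf1 fell, averaged over the sexes, by 0.30 on the log2 scale (SE 0.10, limma adjusted p = 0.0219). Pparg and Ebf1 were the 2 members of 8 called in this comparison, against 25.8% of all genes. Neither sex alone was called: the log2 difference was -0.31 in males (limma adjusted p = 0.142) and -0.30 in females (adjusted p = 0.170). Without SW male 84 the male value was -0.43 and was called (limma adjusted p = 0.0456), and without p21 male 53 as well it was -0.50 (adjusted p = 0.0362). Only these 2 of the 19 alternatives called it, and adjusted p reached 0.387. With the marker levels as covariates the mean change was -0.25 and was not called (limma adjusted p = 0.324). The other 26 of 27 alternatives called it, with the smallest adjusted p at 0.00338.

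Delayed against standard weaning at p28, the direct comparison of Ebf1, gave -0.25 in males (95% interval -0.53 to 0.03) and -0.40 in females (95% interval -0.68 to -0.12). In each sex 3 of 4 DW animals lay below all SW animals. The mean of the sexes was -0.32 (SE 0.10), not called by limma (adjusted p = 0.0793) and called by DESeq2 (-0.32, adjusted p = 0.0393) and by limma without DW female 76 (-0.37, adjusted p = 0.0247). Over its 28 alternatives adjusted p reached 0.382. In females alone the call appeared without DW female 76 (-0.48, adjusted p = 0.0319), the 1 of 20 alternatives, with adjusted p up to 1.00. The weaning and age comparisons share the p28 animals, so their values are not independent.

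Zfp423 encodes a zinc finger factor that acts upstream of Pparg in preadipocytes and restrains the thermogenic programme in white fat cells. In males it was 18.7, 23.2, 21.5 and 22.5 at p21, 26.3, 30.3, 25.8 and 31.7 after standard weaning, and 29.0, 35.7, 29.3 and 32.2 after delayed weaning. All 8 males at p28 lay above all 4 at p21. Among all genes, 16.1% had groups without overlap between SW and p21 males, and 23.0% between DW and p21 males. The log2 differences from p21 were 0.39 after standard weaning (limma adjusted p = 0.363) and 0.53 after delayed weaning (adjusted p = 0.184), and neither was called. Fitted on the compared groups alone, or without DW females 82 and 83, the second was called with the same size (limma adjusted p = 0.0144 and 0.00956), and these were the 2 calls among 19 alternatives with adjusted p up to 0.313.

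Female Zfp423 was 21.0, 27.5, 20.7 and 22.3 at p21, 18.3, 25.7, 18.7 and 30.4 after standard weaning, and 26.4, 30.5, 12.1 and 7.61 after delayed weaning. Within the DW females, animal 77 was the highest of all 12 females, and animals 82 and 83 were the lowest of all 24 animals. The log2 difference of DW against SW females was -0.43 with all animals and 0.31 without 82 and 83, and neither was called (limma adjusted p = 0.369 and 1.00). The male minus female difference after delayed weaning was 0.88 (95% interval 0.32 to 1.43, limma adjusted p = 0.0862). Without DW females 82 and 83 it was 0.14 (limma adjusted p = 0.872). With the GC correlation as a covariate it was 0.83 and was called (adjusted p = 0.00769), and it was called without DW female 76 (1.09, adjusted p = 0.0189) or 77 (1.16, adjusted p = 0.00910). These were the 3 calls among 20 alternatives.

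Zfp467 encodes a zinc finger factor that promotes the fat fate in marrow stromal cells. It was between 21.5 and 39.5 in the 24 animals. The DW animals had 28.6, 28.5, 23.8 and 24.7 in males and 29.1, 27.5, 26.2 and 21.5 in females. The SW animals had 26.4, 28.8, 30.3 and 37.2 in males and 27.0, 31.3, 30.8 and 39.5 in females. The DW values lay lower on average in both sexes, with overlap. The mean difference of delayed against standard weaning was -0.25 (95% interval -0.46 to -0.03, limma adjusted p = 0.225). Zfp467 was called under none of the alternatives tried.

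**Figure D2:**
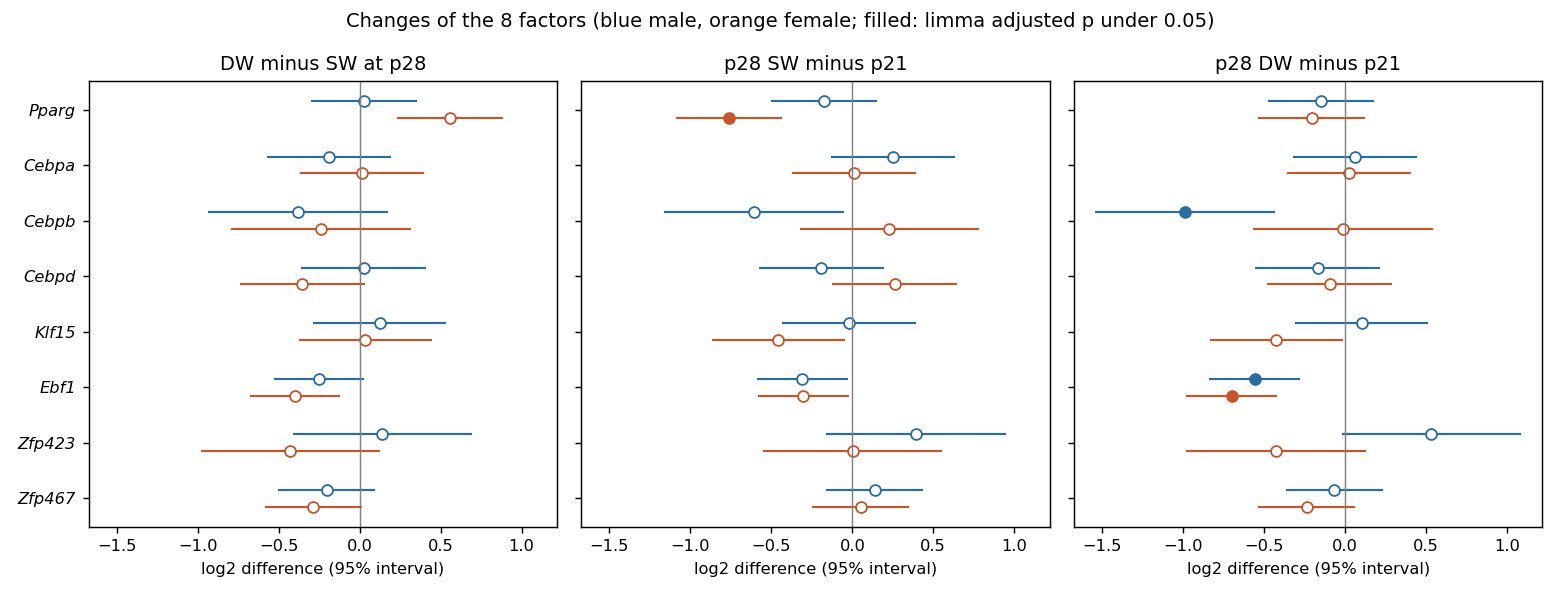
Log2 difference of the 8 factors with its 95% interval (x axis) for delayed against standard weaning and for each p28 group against p21; blue is male, orange female, and filled points passed the limma test across all genes. Filled points stand at -0.76 for Pparg in SW against p21 females, at -0.56 and -0.70 for Ebf1 in DW against p21, and at -0.99 for Cebpb in DW against p21 males.

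The plot of log2 differences shows the direct weaning comparison with open points throughout. For delayed against standard weaning limma called 0 of the 8 members in males, in females and in the mean of the sexes, against 0.256%, 1.27% and 2.21% of all genes. Unadjusted p-values lay under 0.05 for 0 members in males, 2 in females (Pparg and Ebf1) and 3 in the mean (Pparg, Ebf1 and Zfp467). edgeR called 0 in each, and DESeq2 called 0, 1 and 1. The groups of Pparg in females were the 1 pair of 16 in this comparison that did not overlap. In males non-overlap was found for 8.70% of all genes and for 0 of the 8 members. The median difference of the 8 members was -0.08 in males and -0.26 in females, beside 0.00 and -0.02 for all genes tested.

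Between males and females limma called 0 of the 8 members at p21, after standard weaning, after delayed weaning and in the mean of the 3 states. The shares of all genes called were 0.356%, 3.54%, 2.46% and 4.19%. edgeR and DESeq2 called 0 in each as well, and 0, 1, 2 and 1 members had an unadjusted p under 0.05. Pparg was 0.37 higher in SW males than SW females on the log2 scale (limma adjusted p = 0.394), and 3 of 4 males lay above all females. Cebpb was lower in DW males than DW females by a log2 difference of -0.59 (limma adjusted p = 0.232). No member had male and female groups that did not overlap, while 3.96%, 7.77% and 10.8% of all genes did at p21, after standard and after delayed weaning. For the sex difference in the weaning effect and in the change from p21 to standard weaning, limma, edgeR and DESeq2 each called 0 members. Limma called 0.0187% and 1.03% of all genes there, and 1 and 2 members had an unadjusted p under 0.05.

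The products of the members meet on the genes of the mature fat cell. Of 20 known PPARG and C/EBPα targets, 8 rose and 1 fell from p21 to standard weaning in males, and 8 rose and 0 fell to delayed weaning. Over all genes in males, 6.90% rose and 4.97% fell to standard weaning, and 8.86% rose and 6.10% fell to delayed weaning. In females 1 of the 20 rose after standard weaning and 1 fell after delayed weaning, where 7.39% of all genes rose and 6.16% fell. The median change of the 20 was 0.54 and 0.50 in males and 0.01 and -0.11 in females, beside 0.01, 0.02, 0.01 and 0.00 for all genes tested. Pck1, which makes glycerol for triglyceride, rose by 1.42 and 1.44 in the males. Cidec, which enlarges lipid droplets, rose by 1.22 after standard weaning in males, and the droplet coat gene Plin4 rose by 1.26 after delayed weaning. Lep, the leptin gene, fell by 1.18 in SW males. Pparg itself was not called in the males and fell in the SW females, in which Angptl4, a secreted inhibitor of lipoprotein lipase, was the target that rose (0.79).

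Between the 2 weaning regimes limma called 0 of the 20 targets in males and 0 in females, where 3 and 9 had an unadjusted p under 0.05. In the mean of the sexes 1 was higher and 2 were lower under delayed weaning, beside 1.19% and 1.01% of all genes. Lep was 0.96 higher (limma adjusted p = 0.0331). Agpat2, an enzyme of triglyceride assembly, was lower by a log2 difference of -0.71 (adjusted p = 0.0119), and Slc2a4, the insulin-responsive glucose transporter, by -0.39 (adjusted p = 0.0332). After standard weaning 3 targets were higher in males than females, and after delayed weaning 5 were, with 0 lower in either. Of all genes, 0.181% and 0.569% were higher in males there. Plin4 gave 0.74 and 1.06, and Pck1 gave 0.84 and 0.85.

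Among 18 partners and coregulators of PPARG, 1 was called from p21 to standard weaning and 2 to delayed weaning in females, where 11.6% and 12.1% of all genes were. The coactivator Ppargc1a fell in females by 0.70 after standard and 0.88 after delayed weaning. Its relative Ppargc1b fell by 1.05 in DW females. In DW males 3 rose and 0 fell: the corepressor genes Nrip1 (0.90) and Ncor1 (0.52), and Rxra (0.50), which encodes the receptor that pairs with PPARG on DNA. These 3 of 18 stand beside 15.0% of all genes called. SW males had 0 of 18 called by limma, beside 11.9% of all genes, and 4 at an unadjusted p under 0.05.

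Of 19 other transcription factors that promote fat cell formation, 6 fell and 0 rose from p21 to delayed weaning in the mean of the sexes, and 3 fell and 0 rose to standard weaning. Of all genes, 10.5% fell and 12.3% rose to delayed weaning, and 11.0% fell and 14.8% rose to standard weaning. The medians were -0.24 and -0.08, beside 0.01 and 0.02 for all genes tested. Ebf3, a relative of Ebf1, fell by 0.39 and 0.24. Mlxipl, which encodes the carbohydrate sensor ChREBP, fell by 0.58 to delayed weaning and was lower by a log2 difference of -0.66 in delayed against standard weaning (limma adjusted p = 0.0213). Ebf2 fell by 0.45 to standard weaning and Nfia by 0.44 to delayed weaning. Of 18 factors that restrain fat cell formation, 2 rose and 1 fell to standard weaning and 0 rose and 1 fell to delayed weaning, in the mean of the sexes. These counts of 3 and 1 called stand beside 25.8% and 22.8% of all genes. Foxo1 fell by 0.42 to standard weaning.

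Gata3 belongs to the restraining factors and is also a factor of mammary luminal cells. It rose by 1.76 from p21 to standard weaning in females (limma adjusted p = 5.95e-05), from 12.1 ± 2.17 to 43.1 ± 5.39 (SD, n = 4 each), and was 17.6 ± 8.66 after delayed weaning. In males it lay between 4.77 and 10.2. Of 8 mammary epithelial markers, 6 rose from p21 to standard weaning in females, beside 7.39% of all genes. Between DW and SW females 0 of the 8 were called by limma and 6 had an unadjusted p under 0.05. Their summed signal was 41.6 to 159 in p21 females, 257 to 356 in SW females, 98.3 to 215 in DW females and at most 41.0 in males. The SW females also had the lowest group mean of Pparg, and the part of mammary tissue in that result was not tested beyond the covariate fit, in which Pparg fell by 0.77 in females (limma adjusted p = 0.0365).

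**Figure D3:**
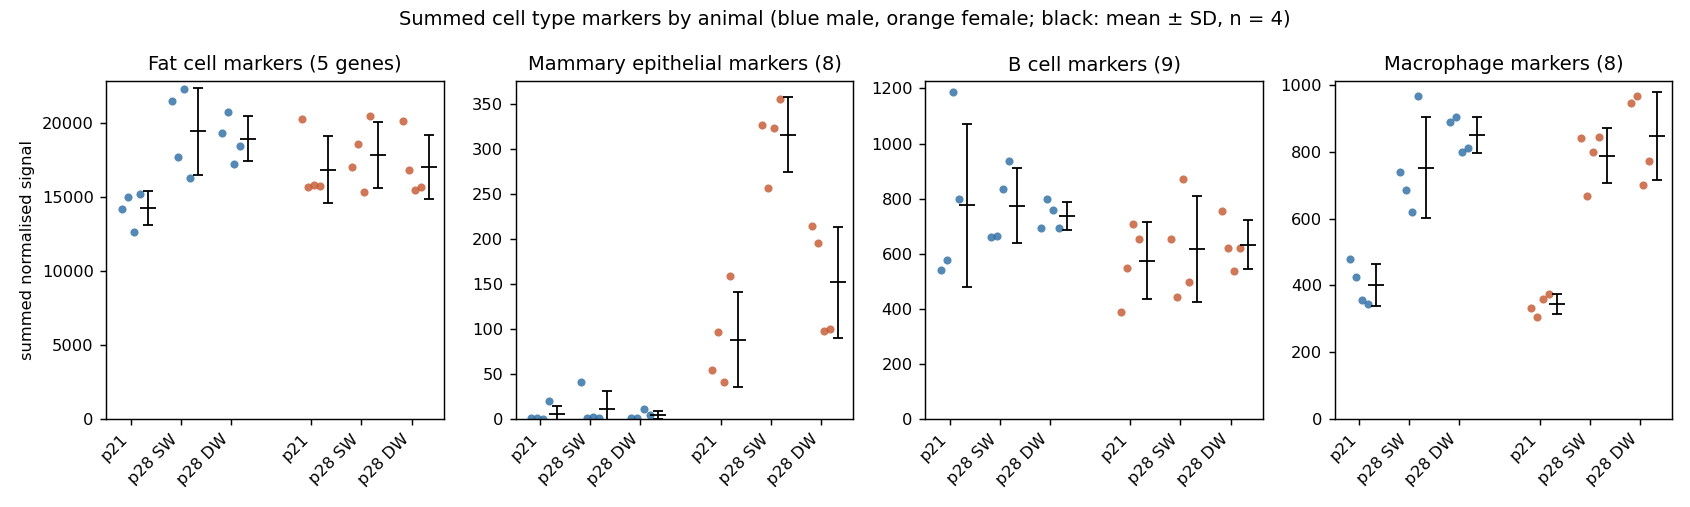
Summed normalised signal of marker genes in each animal (y axes, from 0) for fat cells (Adipoq, Plin1, Fabp4, Cidec, Lipe), mammary epithelium, B cells and macrophages; blue is male, orange female, black is mean with SD, n = 4. Mammary markers peak in SW females at 257 to 356, and macrophage markers are 307 to 478 at p21 and 619 to 968 at p28.

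As the plot of marker sums shows, the fat cell markers that check the tissue label were high in every library, at 12650 to 22300 in sum. In males all p21 sums (12650 to 15190) lay below all SW sums (from 16250) and DW sums (from 17200), while the female groups overlapped. Macrophage markers were 307 to 478 at p21 and 619 to 968 at p28, with no overlap, and 5 to 8 of the 8 rose in each sex and regime. Of all genes, 5.95% to 8.86% rose in these comparisons. B cell markers, of which 9 of 10 were measured, bear on Ebf1 because B cells also use it. Their sums were 390 to 1187, and from p21 to either p28 group limma called 0 of the 9 in each sex, with 0 at an unadjusted p under 0.05. Muscle markers varied from 4.16 to 7042 between libraries. Of 12 progenitor markers, Dlk1, a surface protein of preadipocytes, fell by 1.54 and 1.73 after standard weaning in males and females and by 1.22 and 1.77 after delayed weaning. Ly6a, another progenitor surface marker, rose in DW males by 0.60 and in DW females by 0.91. The summed signal of the 12 progenitor markers was higher on average at p28. Its means were 837 at p21, 947 in SW and 1005 in DW males, and 800, 991 and 1025 in females. The part of these cells in the changes of Pparg, Ebf1 and Cebpb was not tested beyond the covariate fits.

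Recovered reads per library numbered 57600711 to 302145813, and p21 male 53 and SW male 84 had fewer genes detected (14054 and 15497) than the other 22 libraries. The libraries also differed in how a gene's level went with its GC content. Spearman's rho over genes between the deviation from the median library and transcript GC content was -0.64 in p21 male 37, -0.64 in DW female 83 and -0.47 in DW female 82, and reached 0.56 in SW female 81. Genes are not independent replicates, so rho describes a library only. Transcript GC content was 67.2% for Cebpb, 61.03% for Cebpa, 57.9% for Zfp467, 57.7% for Zfp423, 54.8% for Klf15, 48.9% for Cebpd, 47.7% for Ebf1 and 44.6% for Pparg. All 7 calls held with rho as a covariate, and its part in the low Zfp423 of DW females 82 and 83 was not tested beyond that fit.

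**Figure D4:**
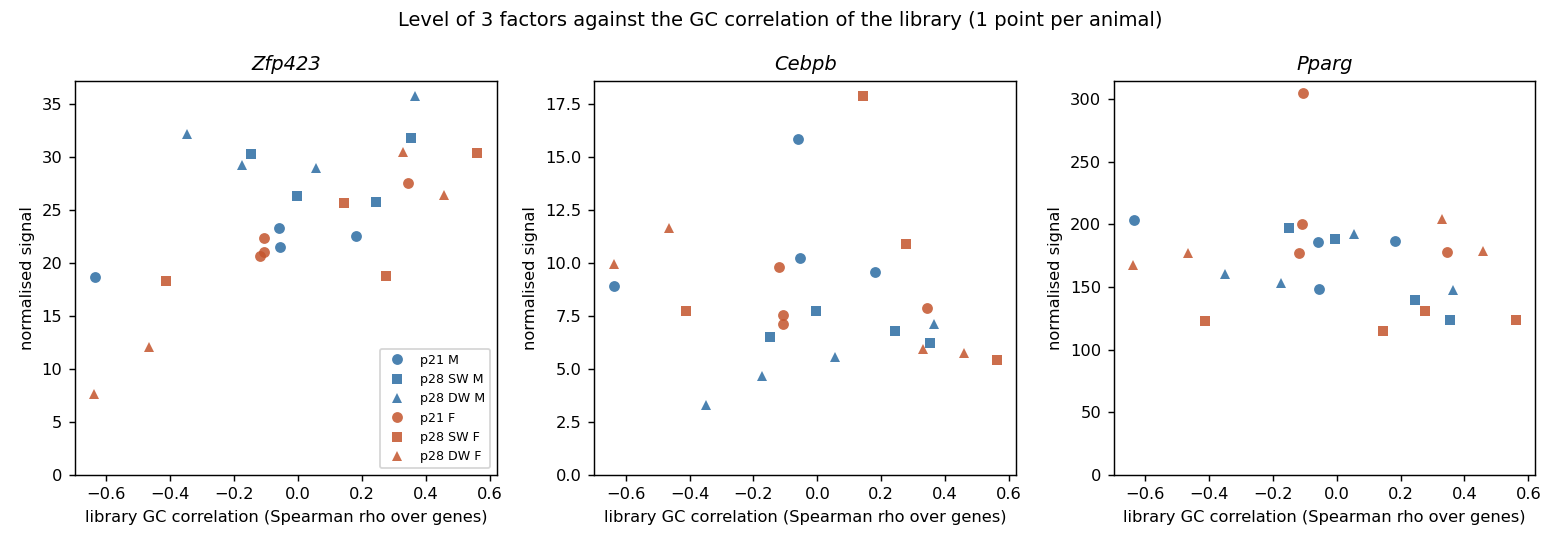
Normalised signal of Zfp423, Cebpb and Pparg (y axes, from 0) against the GC correlation of the library (x axis, Spearman rho over genes), 1 point per animal, blue male and orange female, with circles for p21, squares for SW and triangles for DW. The lowest Zfp423 values, 7.61 and 12.1, stand at rho -0.64 and -0.47.

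The plot against the GC correlation shows Zfp423 low at the left, where DW females 82 and 83 stand. Also at low rho, p21 male 37 had 18.7, the lowest of the males, and SW female 73 had 18.3 (rho -0.41). DW male 87 had 32.2 (rho -0.35), and SW female 75 had 18.7 at a rho of 0.28. Cebpb, the member with the highest transcript GC content, was 11.6 and 9.94 in DW females 82 and 83. It was 5.76 and 5.93 in DW females 76 and 77, whose rho was 0.46 and 0.33. The part of GC content in these values was not tested beyond the covariate fit. Within the runs of animal numbers in the labels, 73 to 80 and 81 to 87, Pparg in females was higher under delayed weaning in both, by 0.63 (2 DW and 3 SW animals) and 0.48 (2 and 1). Ebf1 in females was lower in both, with -0.16 and -0.67, and in males with -0.17 and -0.30. Cebpb in females changed sign between the runs, with -0.87 and 0.87, as did Zfp423 with 0.44 and -1.56. The labels do not say what a run of numbers stands for, and SW male 124 lies outside both.

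For each member the genes with the most similar profile over the 24 animals were ranked among 5049 or 5050 genes with a mean log2 level of at least 5. The measure was the root mean square distance between standardised profiles, which is 0 for the same shape. Pparg lay nearest to Pik3r1 (0.48), which encodes the regulatory subunit of PI3-kinase, then to Dcun1d3 (0.60) and Osbpl1a (0.66). Ebf1 lay nearest to Fto (0.49), Psmd11 (0.50) and Mmachc (0.51), and Zfp423 to Inf2 (0.35), Piezo1 (0.37) and Smarcc2 (0.37). Cebpb lay nearest to Mrfap1 (0.65), Ndufs3 (0.67) and Psmd13 (0.71), and Cebpa to Plaat3 (0.68), Trappc3 (0.68) and Atp6v1e1 (0.75). Klf15 lay nearest to Ksr1 (0.63), Kri1 (0.66) and the clock gene Per1 (0.69), and Zfp467 to Tnk2 (0.53), Gse1 (0.63) and Stxbp2 (0.66). The scarce Cebpd lay nearest to the ribosomal protein genes Rps12 (0.72), Rps9 (0.73) and Rps16 (0.75). Each nearest gene is by selection the smallest of all these distances. Pparg and Cebpa stood at 1.45 from each other, and the distances from Pparg to the other members ran from 1.21 (Ebf1) to 1.64 (Zfp467). The profiles share the depth and base composition of the libraries.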

How the data were processed

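Poly(A) RNA-seq libraries of 24 mice (KAPA mRNA HyperPrep, NovaSeqXPlus, per the labels' protocols) were grouped by their labels for age, sex and weaning into 6 groups of 4. For p21 animals the age in the title differs from the age label, which was used. Each library is a separate animal. Per the submitters' processing notes, fastp, HISAT2, featureCounts and DESeq2 1.38.3 were used with the build mm10. The authors deposited 1 normalised signal per gene and library: read numbers divided by 1 factor per library. The values were whole multiples of 1 read in 100% of cases (tolerance 0.001), so reads were recovered. After 90 of 16208 rows that repeat a gene were left out, 16118 genes remained. The authors' deposited log2 fold changes and p-values were read but give no result here.

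The fixed plan named edgeR for counts and limma for normalised values, so limma 3.58.1 (R 4.3.3) was fitted with a variance trend to log2(value + 1), with 6 group coefficients, 18 residual degrees of freedom and Benjamini-Hochberg adjustment. Genes were kept by edgeR's filterByExpr at a minimum count of 10. Alternatives were edgeR 4.0.16 (TMM or DESeq2 size factors) and DESeq2 1.42.0 on recovered reads, no filter, a pseudocount of 0.1, no variance trend, marker covariates, the run of animal numbers, only the compared groups, and each animal left out. edgeR called 3389 genes from p21 to delayed weaning in the mean of the sexes, where limma called 3655. The scripts were tested on simulated counts. Replicates differed by a chi-square of at least 77.4 per degree of freedom over 36 pairs, so none were merged. In DW females it was 126.5 between animals 76 and 77 and 123.7 between 82 and 83, but 596 to 793 across these pairs. In DW males it was 78.8 between 79 and 80 and 90.0 between 86 and 87, but 165 to 251 across. The tests treat each animal as independent, and litter and cage were not part of any fit. Intervals are for the difference of group means and rest on a spread between animals that is shared over the 6 groups.

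The 8 members, the gene lists and the tests were chosen with earlier results of these data known. Named genes are the 8 members, up to 3 called genes with the largest change per list and comparison, any list gene as a marker value, and the 3 genes nearest each member in profile. Adipoq, Plin1, Fabp4, Cidec and Lipe check the tissue. The list genes Ighm and Trac were not analysed here.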

Additional observations from a re-analysis of the deposited data

Results flagged for a closer look

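In the standard-weaned males, 1 animal stood apart for Ebf1. Male 84 had a log2(value + 1) of 8.02, a normalised signal of 258, while the other 3 males lay between 7.48 and 7.56. Its gap to the nearest animal was 0.859 of the group's range, above Dixon's 95% critical value of 0.829 for 4 samples. Of the 48 groups of 4 animals examined for the 8 factors, this was the 1 beyond that value, and chance gives about 1 in 20. The library of male 84 also had fewer genes detected, 15497, than all others except p21 male 53. Without male 84 the male log2 difference of Ebf1 from p21 to standard weaning was -0.43 (limma adjusted p = 0.0456) in place of -0.31 (adjusted p = 0.142). The cause was not tested.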

How the results depend on the processing

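Under 12 alternatives and each animal left out in turn, 0 of the 128 pairs of a factor and a comparison reversed a call. Of the 121 pairs not called, 14 were called under some alternative. Cebpa and Zfp467 were called under none. The alternatives that leave out libraries 53 and 84 or 82 and 83, and the one with the GC correlation, were chosen after seeing the data.

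The number of the 8 factors called changed as follows, and the cause was not tested. DESeq2 called 1 in place of 0 for delayed against standard weaning in females and in the mean of the sexes, and 2 in place of 1 for p21 to delayed weaning in the mean. The GC correlation as a covariate gave 2 in place of 1 for p21 to standard weaning in females, 3 in place of 2 in the mean, and 1 in place of 0 for male against female after delayed weaning and in the mean of the 3 states. A fit on the compared groups only gave 2 in place of 1 for p21 to standard weaning in females, and 3 in place of 2 for p21 to delayed weaning in males. The B cell, mammary and muscle covariates gave 0 in place of 2 for p21 to standard weaning in the mean, and 1 in place of 2 for p21 to delayed weaning in males. Without p21 male 53 and SW male 84, p21 to standard weaning in males gave 1 in place of 0. Without DW females 82 and 83, p21 to delayed weaning gave 3 in place of 1 in the mean, and 3 in place of 2 in males.

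With single animals left out, the counts ranged from 0 to 2 for delayed against standard weaning in females and 0 to 1 in the mean, 0 to 1 for p21 to standard weaning in males, 1 to 2 for p21 to delayed weaning in males, in females and in the mean, and 0 to 1 for male against female after standard and after delayed weaning. The animals concerned were DW females 76, 77 and 82, SW males 84 and 124, p21 male 38 and DW males 80 and 87.

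Across all genes, limma called 204 and edgeR 71 for delayed against standard weaning in females, 57 and 15 for male against female at p21, 165 and 4 for the sex difference in the change to standard weaning, 11 and 0 for that to delayed weaning, and 3 and 0 for that in the weaning effect. edgeR gave 2688 and 840 genes an unadjusted p under 0.05 in the last 2. No paired analysis was possible because the groups share no animal numbers. Groups of 4 limit all tests, and Cebpd, with as few as 43 reads in a library, is also limited by depth.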

Other observations

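Glucocorticoids induce Klf15, Cebpb and Cebpd in cultured preadipocytes, so 14 glucocorticoid-responsive genes were examined beside them. From p21 to standard weaning in the mean of the sexes 1 rose and 2 fell, beside 14.8% and 11.0% of all genes, and the median change was -0.11. Angptl4 rose by 1.00, while the cell cycle inhibitor Cdkn1a fell by 0.61 and Tsc22d3, which encodes the glucocorticoid-induced leucine zipper, fell by 0.58. To delayed weaning 1 rose and 0 fell, beside 12.3% and 10.5% of all genes. Fkbp5, a chaperone of the glucocorticoid receptor, was 1.00 higher under delayed than standard weaning (limma adjusted p = 0.0353). It fell by 1.25 in SW females and rose by 1.30 in DW males, both from p21. Klf15, Cebpb and Cebpd were not called between the weaning regimes.

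The remaining marker lists changed between p21 and p28 as follows, in the mean of the sexes. Of 7 T cell markers, 6 fell to standard weaning and 4 to delayed weaning, and of 8 macrophage markers all 8 rose in both. Of 8 endothelial markers, 4 and 3 rose. Of all genes, 14.8% rose and 11.0% fell to standard weaning, and 12.3% rose and 10.5% fell to delayed weaning. All 8 muscle markers rose to standard weaning and 0 of 8 were called by limma to delayed weaning, where 7 had an unadjusted p under 0.05. Of 8 proliferation genes, 6 fell to standard weaning and 6 rose to delayed weaning, and all 8 were higher in delayed than standard weaning (1.19% of all genes), with a median log2 difference of 1.06. Mki67, a marker of dividing cells, was 1.08 higher in DW than SW males, in which no adipogenic factor was called.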
